A study of Mus musculus with 6 samples.

Results

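Polycomb repressive complex genes were described in RNA sequencing libraries of cultured mouse female germline stem cells, 3 labelled FGSC and 3 labelled Dif-FGSC for the same cells after induced differentiation. The members were 10 gene symbols, Ezh1, Ezh2, Eed, Suz12, Jarid2, Rnf2, Ring1, Bmi1, Cbx2 and Cbx7, and all 10 were found among the 24672 genes of the deposited table. Both groups were C57BL/6 cells at late passage. Cells of the FGSC group grew on inactivated STO fibroblasts with 10 ng/mL LIF, 20 ng/mL EGF, 10 ng/mL bFGF and 10 ng/mL GDNF. Cells of the Dif-FGSC group were moved to inactivated granulosa cells with 0.1 µmol/L retinoic acid, 10 ng/mL BMP4 and 10 ng/mL bFGF, so feeder cells, growth factors and retinoic acid changed together and cannot be told apart. The series title sets the comparison in the context of retinoic acid, the start of meiosis and chromatin structure. Table columns headed con were taken as FGSC and those headed dif as Dif-FGSC, and the libraries are named here by their labels.

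Polycomb proteins keep genes silent through a pair of histone marks. Polycomb repressive complex 2 (PRC2) methylates lysine 27 of histone H3 (H3K27) through Ezh2 or Ezh1, held together by Eed and Suz12. Polycomb repressive complex 1 (PRC1) attaches ubiquitin to histone H2A through Rnf2 (RING1B) or Ring1 (RING1A), paired with a PCGF protein such as Bmi1, and in its canonical form reads the PRC2 mark through a chromodomain protein such as Cbx2 or Cbx7. In mouse primordial germ cells, PRC1 is known to hold back Stra8 and other genes of meiotic entry until retinoic acid acts.

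The values are FPKM (sequenced fragments scaled by transcript length and by library size), which allow levels to be set side by side per length. Steps between low values implied 17.35 to 26.85 M (mega) fragments a library, and Pearson correlations of log2(FPKM + 1) across tested genes were 0.9936 to 0.9963 within groups and 0.9625 to 0.9680 between them. The values of Ezh2, Suz12, Jarid2 and Rnf2 carry more than the 6 significant digits of a single estimate. Of the tested genes, 99.7% of 4691 genes with 1 RefSeq transcript had at most 6 digits, against 25.9% of 2039 genes with 2 transcripts, so such values may be means over several transcripts and may lie below the level of the whole gene. Levels are therefore ordered here for the other 6 members, while differences between the groups are those of the deposited values. Most germ cell markers, which the label of the cells would call for, were listed at or near 0. Of 12 germ cell markers 5 were listed at 0 in every library, among them Dazl, Sycp3 and Dmc1, and 9 stayed below 0.1 FPKM. Zeros in this table may stand for estimates that failed, since Usp16 and Lcorl, of the Polycomb lists, were also listed at 0 in every library. Other germ cell markers had a value above 0 in some library. Among these, Ddx4 stayed at 0.0104 FPKM or less, Dppa3 at 0.0447 or less and Pou5f1 at 0.0446 or less. The 12 germ cell markers summed to at most 0.253 FPKM in FGSC libraries and to 0.606 to 0.929 in Dif-FGSC libraries. Zbtb16 made most of the latter sum, at 0.433, 0.478 and 0.749 FPKM and listed at 0 in every FGSC library, and Ifitm3, a gene of many cell types, gave 0.169 and 0.177 FPKM in FGSC replicates 1 and 3 and was at 0 elsewhere. Of 12 blood cell markers 8 were tested, and the 12 summed to 847 to 890 FPKM in FGSC libraries and 1070 to 1080 in Dif-FGSC libraries. Of the 8 tested, 5 were higher in Dif-FGSC libraries, beside 36.5% of all tested genes, none was lower and 3 were not called. Mean FPKM in FGSC and Dif-FGSC libraries was 14.0 and 17.6 for Ptprc, 185 and 248 for Gata2 and 288 and 301 for Cpa3. Larger differences were seen for Mcpt8 (0.596 and 8.21 FPKM, 13.8 times) and Laptm5 (99.8 and 187 FPKM, 1.88 times). Cma1, too low to be tested, stood at 0.0288 and 1.24 FPKM. Tpsb2 was listed at 0 in every library, and Fcer1a and Ms4a2 stayed at 0.174 FPKM or less. The 8 fibroblast markers summed to 0.336 to 0.636 FPKM in FGSC libraries against 0.163 to 0.235 in Dif-FGSC libraries. Thy1 made most of the FGSC sum, at 0.337, 0.289 and 0.464 FPKM against 0.0765, 0.147 and 0.116 in Dif-FGSC libraries. The 8 granulosa markers summed to 0.458 to 0.625 FPKM against 0.298 to 0.474. Col3a1, Foxl2 and Fshr were listed at 0. The part of the blood cell transcripts in the differences below was not tested. In bulk RNA, fewer cells of a type and less RNA per cell cannot be told apart.

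The promoters of the 3 members that passed the test most clearly are shown first, because Ezh2 was lower and Bmi1 and Jarid2 were higher in Dif-FGSC libraries. Each sequence is the 250 bases before the annotated start, from RefSeq on GRCm38.p6, read 5′ to 3′ on the strand of the gene, with matches to the searched motifs in capitals. The Ezh2 window lies at chr6:47595031-47595280 on the minus strand, the Bmi1 window at chr2:18676768-18677017 on the plus strand and the Jarid2 window, the first of its listed starts, at chr13:44730524-44730773 on the plus strand.
Ezh2: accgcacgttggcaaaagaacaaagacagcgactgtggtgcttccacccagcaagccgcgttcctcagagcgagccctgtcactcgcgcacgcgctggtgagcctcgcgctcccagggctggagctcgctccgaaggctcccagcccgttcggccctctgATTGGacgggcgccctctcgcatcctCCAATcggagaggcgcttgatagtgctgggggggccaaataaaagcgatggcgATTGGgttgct
Bmi1: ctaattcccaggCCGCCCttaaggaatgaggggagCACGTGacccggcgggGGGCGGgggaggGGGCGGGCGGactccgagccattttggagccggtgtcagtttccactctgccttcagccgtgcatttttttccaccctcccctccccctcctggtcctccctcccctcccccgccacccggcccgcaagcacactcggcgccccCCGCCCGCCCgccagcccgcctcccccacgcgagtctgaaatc
Jarid2: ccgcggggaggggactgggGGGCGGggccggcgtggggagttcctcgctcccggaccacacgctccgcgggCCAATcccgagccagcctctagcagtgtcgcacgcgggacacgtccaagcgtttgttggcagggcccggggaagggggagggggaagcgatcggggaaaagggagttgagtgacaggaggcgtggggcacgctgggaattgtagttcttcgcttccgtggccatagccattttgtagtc

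The 3 windows differ in their motifs. Ezh2 has 3 CCAAT boxes (CCAAT), 90, 64 and 11 bases before the start, and no GC box (GGGCGG). Bmi1 has 6 GC boxes, some overlapping, and 1 E-box (CACGTG), and no CCAAT box. Jarid2 has 1 GC box and 1 CCAAT box. Both strands were searched. A CCAAT box is found in 33.8% of 32536 such windows in the genome, a GC box in 33.0% and an E-box in 6.04%. Of the 9 members with a window, 4 hold a CCAAT box and 6 a GC box. The E2F motif (TTTCCCGC, TTTGGCGC, TTTCGCGC or TTTGCCGC), in 1.87% of windows, was found in Suz12, and the ETS motif (CCGGAA), in 12.1%, in Ring1. No member window holds the retinoic acid receptor motif AGGTCA, which 14.0% of windows hold, the AP-1 motif TGANTCA (6.73%) or the cyclic AMP motif TGACGTCA (1.56%). The windows were rich in CpG, with 23 CpG in Ezh2, 21 in Bmi1 and 23 in Jarid2 against a median of 6 over all windows. These matches describe letters in the windows and not sites in use.

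The Polycomb genes were expressed in both groups and most differed little between them. Calls rest on a Benjamini-Hochberg adjusted p below 0.05 from limma, fitted on log2(FPKM + 1) over the 9162 genes with a mean of at least 1 FPKM, a filter that all 10 members passed. Of the 10 members, 4 were called, beside 65.1% of all tested genes. Of these, 3 were higher in Dif-FGSC libraries (Jarid2, Bmi1 and Cbx2), beside 36.5% of all genes, and 1 was lower (Ezh2), beside 28.6%. The groups did not overlap for 6 members, beside 70.7% of all genes. The median log2 difference was -0.009 over the members and 0.029 over all tested genes, and the median size regardless of sign was 0.127 and 0.206. The counts moved with the scaling between libraries: median-ratio scaling gave 3 higher and 3 lower members, and quantile normalization gave 2 higher and 4 lower.

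**Figure D1:**
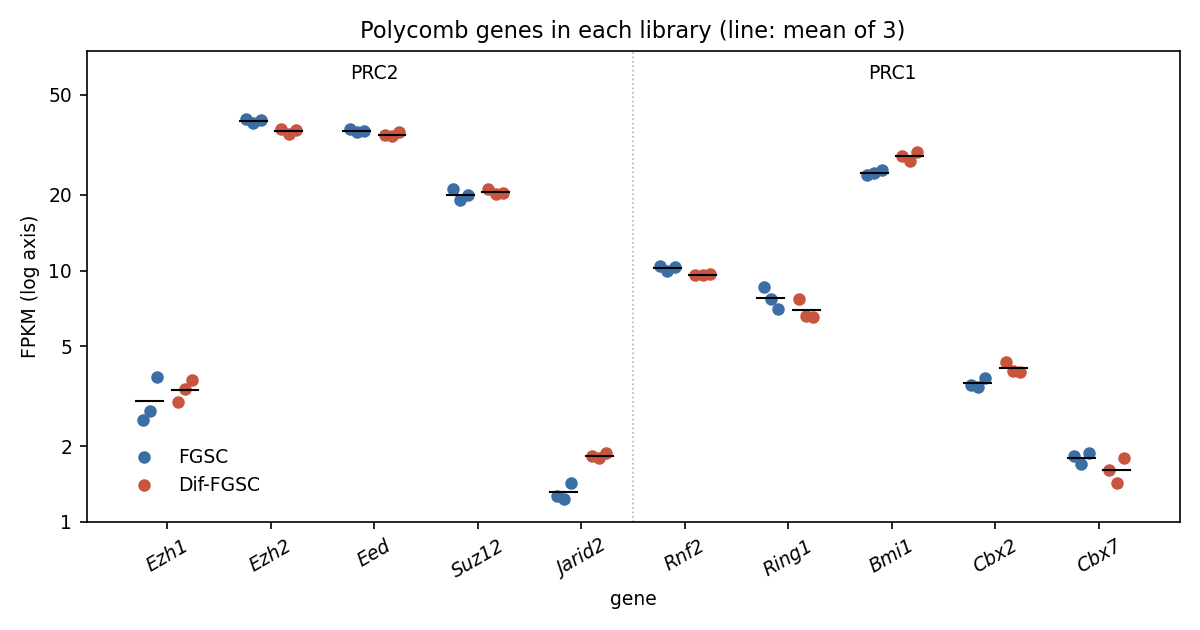
FPKM of the 10 members on a log axis, with 1 point for each library and a line at the mean of 3 libraries. Points of FGSC and Dif-FGSC libraries are apart for Ezh2, Jarid2, Rnf2, Bmi1 and Cbx2 and, narrowly, for Eed, and they mix for Ezh1, Suz12, Ring1 and Cbx7.

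The catalytic subunits of PRC2 stood at very different levels. Ezh2, the main H3K27 methyltransferase of dividing cells, was listed at 40.2, 38.7 and 39.6 FPKM in FGSC libraries and at 36.5, 34.9 and 36.2 in Dif-FGSC libraries. Every Dif-FGSC library lay below every FGSC library. The mean fell from 39.5 ± 0.749 to 35.8 ± 0.826 FPKM (SD, n = 3 libraries), 0.907 times the level in FGSC, a log2 difference of -0.14 ± 0.0312 (SE, limma adjusted p = 0.00573). The call held under all 15 alternatives of the fit, with adjusted p between 0.0017 and 0.0267.

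Genes of cell division moved beside Ezh2, in both directions. Of 20 proliferation genes, all tested, 10 were lower, beside 28.6% of all tested genes, and 6 higher, beside 36.5%. Mki67, the marker of cycling cells, stood at 0.441 times the FGSC level, and Pcna, the replication clamp, at 0.736 times. E2f1, a transcription factor of S phase entry, stood at 1.49 times and Foxm1, a factor of mitotic genes, at 1.39 times. The part of these genes in the Ezh2 difference was not tested.

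Ezh1, the paralogue that also acts in non-dividing cells, was listed at 2.55, 2.77 and 3.77 FPKM in FGSC libraries and at 2.99, 3.37 and 3.66 in Dif-FGSC libraries. The groups overlap, and FGSC replicate 3 is the highest of the 6 libraries. The log2 difference was 0.12 ± 0.114 (SE, adjusted p = 0.394), with a 95% interval of -0.15 to 0.38. Single libraries decided this value. Without FGSC replicate 3 Ezh1 passed the threshold, with a log2 difference of 0.24 (limma adjusted p = 0.0277), while the difference was 0.031 without FGSC replicate 1 (0.83), 0.074 without FGSC replicate 2 (0.648) and 0.063 without Dif-FGSC replicate 3 (0.696).

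The balance of the paralogues was taken within each library, where scaling cancels. Ezh2 stood at 15.8, 14.0 and 10.5 times Ezh1 in FGSC libraries and at 12.2, 10.4 and 9.87 times in Dif-FGSC libraries. The ranges overlap, and the exact two-sided permutation test of the log2 ratio gave p = 0.2 (0.45 adjusted over 3 paralogue ratios), where 3 libraries against 3 cannot go below 0.1. Ezh2 made up 90.8% to 94.0% of the summed FPKM of the pair, which may be an understatement since the Ezh2 value may be a mean over transcripts.

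The scaffolds of PRC2 stayed close to their starting level. Eed, which binds the methylated histone and stimulates the enzyme, was listed at 36.6, 35.5 and 36.1 FPKM in FGSC libraries and at 34.6, 34.3 and 35.5 in Dif-FGSC libraries. The groups were apart by a narrow margin, at 0.963 times the FGSC level. The log2 difference of -0.05 ± 0.0293 (SE) did not pass the test (limma adjusted p = 0.152), but did with median-ratio scaling (0.0309) and after quantile normalization (0.0176). Suz12, which holds the complex together, was listed at 21.1, 19.1 and 20.0 FPKM in FGSC libraries and at 21.1, 20.2 and 20.3 in Dif-FGSC libraries. The groups overlap, and the 95% interval of the log2 difference was -0.07 to 0.14 (limma adjusted p = 0.514).

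Jarid2, an accessory protein that brings PRC2 to chromatin, showed the largest difference among the members. It was listed at 1.27, 1.23 and 1.43 FPKM in FGSC libraries and at 1.82, 1.79 and 1.87 in Dif-FGSC libraries. Every Dif-FGSC library lay above every FGSC library. The mean rose from 1.31 ± 0.102 to 1.83 ± 0.044 FPKM, 1.39 times, with a log2 difference of 0.29 ± 0.054 (SE, limma adjusted p = 0.00212). Because FPKM + 1 understates changes of low genes, the difference was 0.45 with a pseudocount of 0.1, and the call held under each of the 14 alternatives in which Jarid2 was tested.

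**Figure D2:**
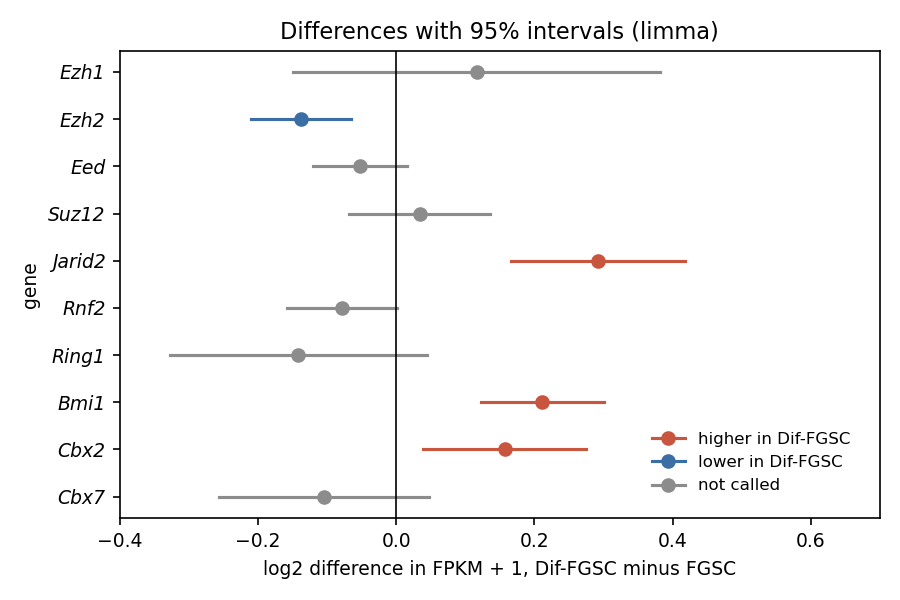
Log2 difference in FPKM + 1 of each member, Dif-FGSC minus FGSC, with bars for the 95% interval of the limma fit. Jarid2 (0.29), Bmi1 (0.21) and Cbx2 (0.16) lie above 0, Ezh2 (-0.14) lies below 0, and the intervals of the other 6 members include 0.

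The ubiquitin ligases of PRC1 had lower means in Dif-FGSC libraries but did not pass the test. Rnf2, the main H2A ligase, was listed at 10.4, 9.96 and 10.3 FPKM in FGSC libraries and at 9.63, 9.57 and 9.67 in Dif-FGSC libraries. Each Dif-FGSC library lay below each FGSC library, at 0.942 times on average. The log2 difference was -0.08 ± 0.0341 (SE, limma adjusted p = 0.0761), and the call was made with median-ratio scaling (0.0184) and after quantile normalization (0.0027). Ring1, its paralogue, was listed at 8.58, 7.74 and 7.03 FPKM in FGSC libraries and at 7.70, 6.61 and 6.56 in Dif-FGSC libraries. The groups overlap, and the log2 difference of -0.14 ± 0.0795 (SE) was not called (limma adjusted p = 0.152), although it was after quantile normalization (0.0334). With single libraries left out, the difference ran from -0.208 without Dif-FGSC replicate 1 to -0.078 without FGSC replicate 1, and none of these 6 fits called it. Rnf2 stood at 1.32 ± 0.131 times Ring1 in FGSC libraries and 1.39 ± 0.121 times in the others (SD, n = 3). The exact two-sided permutation test detected no difference (p = 0.6). Both ratios may be understated, since the Rnf2 value may be a mean over transcripts.

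Bmi1, the PCGF partner of the ligase known for the self-renewal of blood and neural stem cells, was higher in Dif-FGSC libraries. It was listed at 24.1, 24.4 and 25.1 FPKM in FGSC libraries and at 28.7, 27.3 and 29.7 in Dif-FGSC libraries. The groups were well apart. The mean rose from 24.5 ± 0.502 to 28.6 ± 1.19 FPKM, 1.16 times, with a log2 difference of 0.21 ± 0.0385 (SE, limma adjusted p = 0.00193), and the call held under all 15 alternatives. The reference annotation holds another gene, Gm5946, with 97.0% identity over 2658 bases of the Bmi1 transcript, so reads of the pair could have been split or mixed. Gm5946 was not among the genes with values, so this could not be checked. Pcgf2 (MEL18), the closest paralogue, stood at 2.39 ± 0.207 and 2.51 ± 0.108 FPKM and was not called (limma adjusted p = 0.473). Bmi1 stood at 9.27, 11.1 and 10.5 times Pcgf2 in FGSC libraries and at 11.1, 10.7 and 12.5 times in Dif-FGSC libraries. These ratios overlap (exact two-sided permutation p = 0.3). They may be overstated, since the Pcgf2 value carries more than 6 digits and may be a mean over transcripts.

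The chromodomain members were low. Cbx2 was listed at 3.49, 3.45 and 3.75 FPKM in FGSC libraries and at 4.34, 3.98 and 3.96 in Dif-FGSC libraries. The groups were apart, and the mean rose 1.15 times, with a log2 difference of 0.16 ± 0.0506 (SE, limma adjusted p = 0.0266). That call was lost without FGSC replicate 1 (adjusted p = 0.0744), without FGSC replicate 2 (0.0773), without Dif-FGSC replicate 1 (0.0969), after quantile normalization (0.263) and with no filter on low values (0.0503), within a range of 0.017 to 0.263. Cbx7 was listed at 1.83, 1.70 and 1.87 FPKM in FGSC libraries and at 1.61, 1.43 and 1.79 in Dif-FGSC libraries. The groups overlap, and the log2 difference of -0.10 ± 0.0652 (SE) was not called (limma adjusted p = 0.19). It was -0.054 without Dif-FGSC replicate 2 and -0.156 without Dif-FGSC replicate 3. Exons of Apobec3, at 5.69 to 6.88 FPKM and so above Cbx7 in every library, overlap those of Cbx7 on the other strand. No source used here gives the strand setting of the counting, so reads of the pair may not be separated. The same holds for Rnf2 with Trmt1l, at 8.28 to 9.68 FPKM, and for Eed with E230029C05Rik, which was listed at 0 in every library. It also holds for Ezh2 with Gm26625 and for Suz12 with Gm26563, where neither overlapping gene had a value.

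Among the 6 members whose values have at most 6 digits, the order of levels was Eed, Bmi1, Ring1, Cbx2, Ezh1 and Cbx7 in both groups. Cbx2 and Ezh1 were neighbours that overlapped in FGSC libraries and not in Dif-FGSC libraries. About 81 to 143 fragments a library lay behind Cbx7, 248 to 368 behind Cbx2, 252 to 302 behind Ezh1 and 1563 to 2325 behind Bmi1, from the length of the reference transcript. The other neighbours in this order did not overlap in either group.

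Other PRC2 proteins, taken from a list of 10 of which 9 were in the table, were mostly not called. Of 7 tested, 2 rose, 1 fell and 4 missed the threshold, beside 65.1% of all tested genes called, with a median log2 difference of 0.066. Epop, an accessory subunit that links PRC2 to elongin, rose from 23.5 ± 2.03 to 32.9 ± 1.42 FPKM (limma adjusted p = 0.000369). Phf19, a Tudor domain subunit that helps recruit PRC2, stood at 1.11 times the FGSC level (adjusted p = 0.00657, and 0.227 after quantile normalization). Its relative Mtf2 stood at 0.884 times (adjusted p = 0.0233), a call lost without FGSC replicate 1 (0.0755), Dif-FGSC replicate 1 (0.0648) or Dif-FGSC replicate 2 (0.0712). The histone chaperone Rbbp7 was the most abundant of the list, at 198 and 192 FPKM, and was not called.

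The other genes listed with canonical PRC1 included larger differences. Of the 10 analysed, 7 could be tested: 3 were higher, 1 lower and 3 not called, with a median log2 difference of 0.122. Beside them, 36.5% of all tested genes were higher and 28.6% lower. Phc2, a polyhomeotic protein that joins PRC1 particles into larger assemblies, was listed at 7.63, 7.22 and 6.66 FPKM in FGSC libraries and at 14.2, 14.8 and 13.7 in Dif-FGSC libraries. The groups were far apart, 1.99 times (log2 difference 0.90 ± 0.0524 SE, limma adjusted p = 6.56e-06). Its paralogues were near 1 FPKM: Phc1 stood at 1.17 times and was not called (adjusted p = 0.0886), and Phc3 fell under the filter. Sfmbt1, a protein with MBT repeats that is not a core subunit of canonical PRC1, stood at 1.57 times (adjusted p = 0.000473).

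Other CBX proteins changed in opposite directions. Cbx8 was listed at 9.01, 10.2 and 9.12 FPKM in FGSC libraries and at 6.73, 6.87 and 6.62 in Dif-FGSC libraries. It fell to 0.715 times (log2 difference -0.43 ± 0.0502 SE, limma adjusted p = 0.000204). Cbx6 rose from 16.0 ± 0.547 to 21.7 ± 0.601 FPKM, 1.36 times (limma adjusted p = 5.6e-05). As shares of the summed FPKM of Cbx2, Cbx6, Cbx7 and Cbx8, whose values all have at most 6 digits, Cbx8 stood at 30.6% ± 2.13 in FGSC libraries and 19.7% ± 0.612 in the others (SD, n = 3). Cbx6 stood at 51.9% ± 1.69 and 63.6% ± 0.294, Cbx2 at 11.6% ± 0.499 and 12.0% ± 0.34, and Cbx7 at 5.85% ± 0.265 and 4.71% ± 0.558. The shares were not tested themselves.

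**Figure D3:**
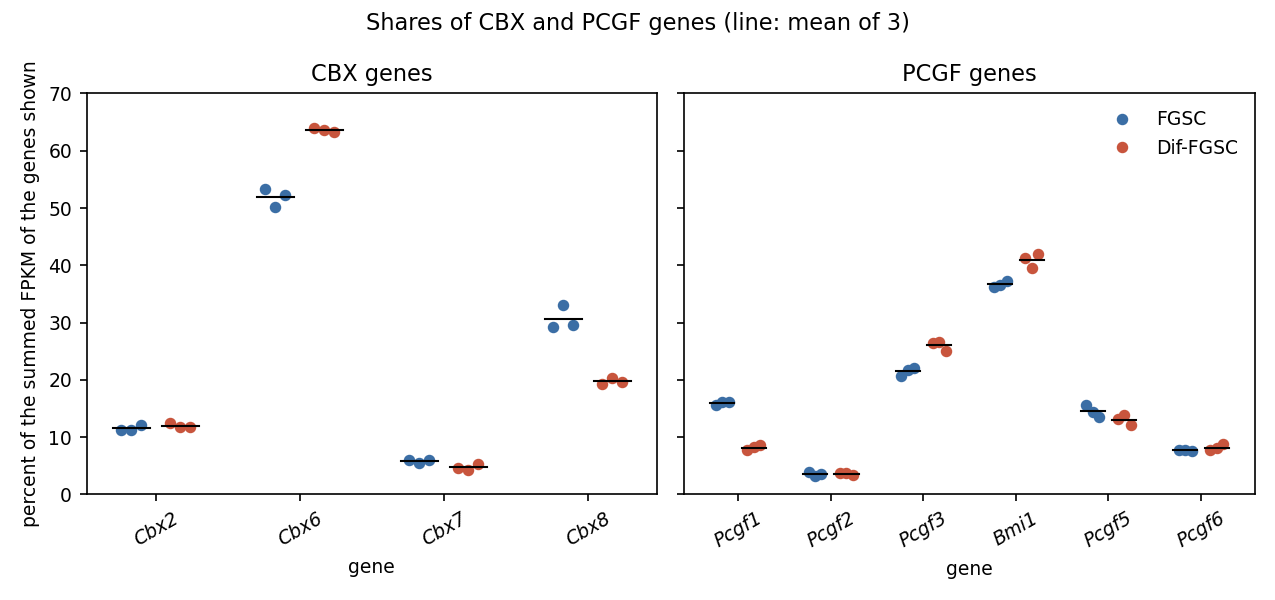
Share of each gene in the summed FPKM of 4 CBX genes (left) and of the 6 PCGF genes (right), in percent, with 1 point for each library and a line at the mean of 3. The share of Cbx8 stands at 30.6% in FGSC and 19.7% in Dif-FGSC, and that of Pcgf1 at 16.0% and 8.19%, while the shares of Cbx2 overlap.

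The PCGF proteins decide which form of PRC1 is built, Bmi1 and Pcgf2 for the canonical form and the others for variant forms. Pcgf1, the partner of Kdm2b and Bcor in a variant PRC1 at CpG islands, was listed at 10.4, 10.8 and 10.8 FPKM in FGSC libraries and at 5.37, 5.71 and 6.05 in Dif-FGSC libraries. It fell to 0.535 times (log2 difference -0.80 ± 0.0469 SE, limma adjusted p = 6.77e-06). Pcgf3 rose to 1.27 times (adjusted p = 0.00026), and Pcgf5 (0.94 times) and Pcgf6 (1.1 times) were not called. Bmi1 held 36.7% ± 0.452 of the summed FPKM of the 6 PCGF genes in FGSC libraries and 40.9% ± 1.28 in Dif-FGSC libraries (SD, n = 3). Pcgf2 and Pcgf6 carry more than 6 digits, so their part of the sum may be understated.

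Of 17 variant PRC1 genes in the table, all tested, 10 rose, 2 fell and 5 missed the threshold. Over all tested genes 65.1% were called, 36.5% higher and 28.6% lower. The median log2 difference of the 17 was 0.119. Fbrs, a partner of Pcgf3 and Pcgf5, rose from 15.3 ± 0.434 to 26.2 ± 0.277 FPKM (limma adjusted p = 2.16e-06). Dcaf7, an adaptor of the same complexes, stood at 1.47 times, and Bcor, the corepressor that pairs with Pcgf1, at 1.54 times while Pcgf1 itself fell. Fbrsl1, the relative of Fbrs, stood at 1.47 times. Yaf2 fell to 0.849 times (adjusted p = 0.00181), while its paralogue Rybp, which takes the same place beside the ligase, stood at 1.11 times and was not called (adjusted p = 0.0777).

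Enzymes that remove the Polycomb marks, with their partners, were higher or not called. The table held 11, and 8 could be tested: 4 were higher, none lower and 4 not called, with a median log2 difference of 0.34. Among all tested genes 36.5% were higher and 28.6% lower. Kdm6b, an H3K27 demethylase that opposes PRC2, was listed at 6.03, 5.53 and 5.82 FPKM in FGSC libraries and at 9.01, 8.64 and 8.34 in Dif-FGSC libraries. The groups were apart, 1.5 times (log2 difference 0.51 ± 0.0457 SE, limma adjusted p = 5.29e-05). Its relative Kdm6a stood at 1.05 times and was not called (adjusted p = 0.341). Bap1, the H2A deubiquitinase, stood at 40.9 ± 0.504 and 40.6 ± 0.88 FPKM and was not called, whereas its partners Asxl1 (1.53 times), Foxk1 (1.7 times) and Foxk2 (1.6 times) rose. Its partners Asxl2 (1.07 times, limma adjusted p = 0.191) and Mbd6 (1.15 times, 0.327) were not called, Mbd5 fell under the filter and Asxl3 was listed at 0. Usp16, another H2A deubiquitinase, was listed at 0 in every library, which can be a failed estimate.

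**Figure D4:**
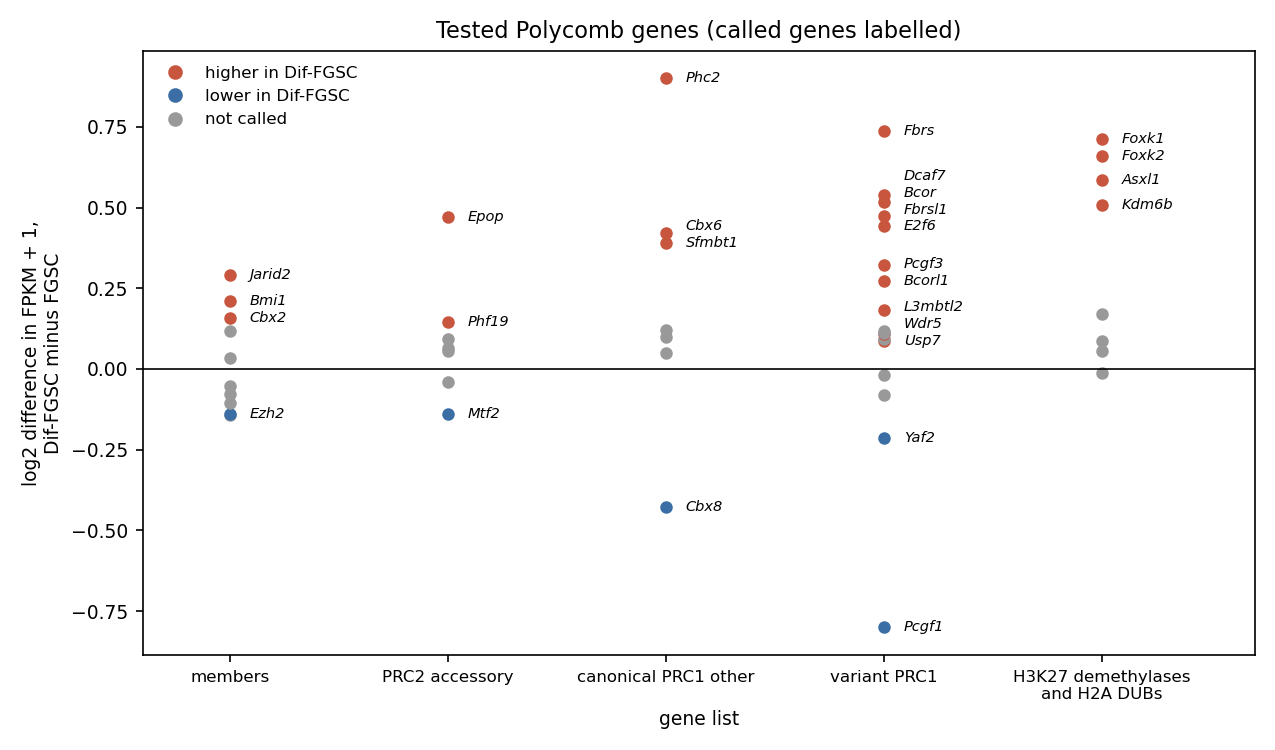
Log2 difference in FPKM + 1, Dif-FGSC minus FGSC, of the tested members and of the other tested Polycomb genes by list, 1 point for each gene, with called genes labelled. The members lie between -0.14 and 0.29, while Phc2 stands at 0.90 and Pcgf1 at -0.80.

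Across these 4 lists the test covered 39 of 47 genes, with 19 higher, 4 lower and 16 not called, beside 36.5% higher and 28.6% lower among all tested genes. Their median log2 difference was 0.119, beside 0.029 over all tested genes, and the called genes ran from 0.535 to 1.99 times the FGSC level. Of the 23 called genes 18 were called under every alternative that tested them, the exceptions being Mtf2, Phf19, L3mbtl2, Usp7 and Wdr5.

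Known targets of Polycomb repression were listed at 0 or at low values in both groups. Of 56 such genes in the table, 39 of them Hox genes and the rest developmental regulators and cell cycle inhibitors, 30 were listed at 0 in every library and 48 stayed below 0.1 FPKM. How many of these zeros are failed estimates cannot be told from the table. None reached the filter, so none was tested. Their summed FPKM was 0.724 to 1.11 in FGSC libraries and 0.775 to 1.19 in Dif-FGSC libraries, which overlap. Cdkn2a, the cell cycle inhibitor locus that Bmi1 is known to repress, was listed at 0 in every library. Of the 26 target genes above 0 in at least 1 library, all at 0.413 FPKM or less, 21 overlapped between the groups. Hoxc4, Hoxc6 and Hoxd8 were higher in each Dif-FGSC library than in any FGSC library, and T and Hoxc13 were lower in each. The margin was narrow for Hoxc13, at 0.316 FPKM in the lowest FGSC library and 0.314 in the highest Dif-FGSC library. Hoxc6 was at 0.115 FPKM in the highest FGSC library and 0.127 in the lowest Dif-FGSC library. The groups did not overlap for 70.7% of all tested genes. Hoxd8, at 0.0249 FPKM or less, and T, at 0.0715 or less, lay close to 0. Separations at such values were not tested. Stra8, which PRC1 restrains in mouse primordial germ cells, was listed at 0.0249, 0 and 0 FPKM in FGSC libraries and at 0.12, 0.0693 and 0.0686 in the others, too low to be tested.

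The genes whose values followed Jarid2, Bmi1 and Cbx2, the 3 called members with the largest differences, most closely were found by Pearson correlation of log2(FPKM + 1) over the 6 libraries, as a description. For Jarid2 they were Gpatch8 (r = 0.9993), Aff3 (0.9991) and Sec24b (0.999). For Bmi1 they were Ptgr2 (0.9978), Trmt6 (0.9968) and Tent4b (0.9959), and for Cbx2 they were Dnajc13 (0.9931), Slc15a4 (0.991) and Cyth1 (0.9898). A correlation of at least 0.95 was reached by 1418 genes for Jarid2, 442 for Bmi1 and 156 for Cbx2, since libraries that fall into 2 groups give many genes such values.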

How the data were processed

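Poly(A) RNA of 6 libraries was sequenced with a stranded kit, per the labels' protocols. The authors deposited FPKM values per gene symbol. HISAT2 4.8.2, Cufflinks 2.2.1 and build mm9 are named in the submitters' processing notes, without roles. The annotation used is not given in the sources used here. Reference sequences and names are of GRCm38.p6 and served for symbols, promoter windows and transcript lengths only.

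Where a symbol was listed repeatedly (2 symbols), its row of higher mean was used. Log2(FPKM + 1) was fitted with limma 3.58.1 in R 4.3.3 (eBayes with trend) over 9162 genes with a mean of at least 1 FPKM, with Benjamini-Hochberg adjustment over them. The script was tested on simulated data. FPKM carry no counts. Depth was estimated from 13637 genes with 1 RefSeq transcript, where 78.7% to 81.2% of low values lay within 0.1 of a whole fragment (20% by chance for a fixed step, although the step was set on the same values). Fragment numbers cover counting error only. The labels do not state whether libraries come from separate cultures, and p-values then reflect spread between libraries that may be technical.

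The members and lists were chosen with earlier results of these data known. All members are named, with up to 5 called genes of the largest difference from each other Polycomb list and Pcgf2, and up to 4 called proliferation genes. Phc1, Phc3, Rbbp7, Bap1, Asxl2, Asxl3, Mbd5, Mbd6, Kdm6a, Usp16, Lcorl, Rybp, Pcgf3, Pcgf5, Pcgf6, Yaf2, L3mbtl2, Usp7, Wdr5, the target genes and the marker genes were named after their values were seen. Alternatives covered pseudocount, filter, scaling, trend, replicate number and leaving out each library. The Ezhip and Auts2 rows of the lists were not analysed here. A gene of the PRC1 list is not reported here.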

Additional observations from a re-analysis of the deposited data

How the results depend on the processing

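Over the 14 or 15 alternatives in which each was tested, 9 of 10 members kept their direction. Suz12 turned to -0.001 with median-ratio scaling and -0.052 after quantile normalization, and lay between -0.001 and 0.07 with single libraries left out. The members called numbered 2 (1 higher) with a mean of at least 5 FPKM, where 6 were tested, and 2 over the 6 members with at most 6 digits, an alternative chosen after seeing the data. Lower calls numbered 3 with median-ratio scaling and 4 after quantile normalization, and the cause was not tested. With single libraries left out, 3 to 5 members, 21 to 26 other Polycomb genes and 5295 to 5963 genes of the table were called, and the log2 ratio difference of Ezh2 over Ezh1 ran from -0.465 to -0.172. The replicate numbers were not taken to pair the samples. Correlations of deviations were 0.131, 0.012 and 0.173 for the same number and -0.218 to 0.106 for different numbers, which does not settle the pairing. With the replicate block 4 members were called, 2 higher and 2 lower, with Ring1 gained (adjusted p = 0.0356) and Cbx2 lost (0.0524), and 5798 genes in all. Depth limits Cbx7 most among members with a fragment estimate.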
